A study of Mus musculus with 40 samples.

Results

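The 5 genes described here, Drd1 to Drd5, encode all dopamine receptors of the mouse. They were taken by symbol from the 55471 genes of the count table, whatever their values, together with the relation of Drd2 to Th, the gene of the rate-limiting enzyme of dopamine synthesis. Messenger RNA was sequenced from punches of the ventral tegmental area (VTA), a midbrain region that holds dopamine neurons, of adult mice. The 8 groups had 5 libraries each. They were male and female mice of the C57/Bl6 and DBA strains, either unhandled controls or put through repeated cross fostering (RCF), in which the adoptive mother of a litter was replaced daily over postnatal days 1 to 4. The labels name no transgene or drug, and they tie no library to an animal or litter, so each p-value reflects only the spread among libraries, which may be technical. The question of the design was whether RCF left a difference in adult expression in each strain and sex.

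Dopamine receptors are G protein-coupled receptors of 2 classes. The D1 class, Drd1 and Drd5, couples to the stimulatory proteins Gs and Golf, which raise cyclic AMP. The D2 class, Drd2, Drd3 and Drd4, couples to Gi and Go, which lower cyclic AMP and open inward rectifier potassium channels. Dopamine neurons of the midbrain carry the D2 receptor themselves, as an autoreceptor that slows their firing and dopamine release. Drd1 is best known from the striatum, the target of these neurons, where it is the receptor of the direct pathway.

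The punches differed widely in what they held, and this touches every receptor value below. Total counts ran from 16913124 to 28179071 per library. Slc6a3, the dopamine transporter gene and a defining marker of VTA dopamine neurons, ran from 0.460 to 2957 CPM (counts of a gene over the library's total, scaled by TMM factors as everywhere here, so that libraries of different depth compare), and 18 of 40 libraries were below 10 CPM. In 4 libraries, C57 male controls 1 and 5, C57 female RCF 4 and DBA female control 3, Slc17a7, a glutamate transporter gene abundant in cortex, stood at 502 to 1311 CPM against at most 97.2 CPM in the other 36. These libraries stand apart by Slc17a7, and many results below, though not all, are given with and without them. Among them, C57 female RCF 4, DBA female control 3 and C57 male control 1 had the lowest Th of all 40 libraries. Their values were 0.724, 3.11 and 8.34 CPM. C57 male control 5, at 13.8 CPM, was not set apart by Th. Of the 36, C57 female control 1, C57 male RCF 5, DBA male RCF 2 and DBA male control 5 had 10.7 to 12.7 CPM. In bulk punches, fewer cells of a type and less RNA per cell cannot be told apart.

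Drd2 and Th are shown by the sequence before their start sites, since Drd2 was the gene that followed Th most closely over the libraries. The windows are the 250 bases before the RefSeq transcript start on GRCm38.p6, 5′ to 3′ on the gene's strand. Capitals mark GC boxes (GGGCGG or its reverse complement) and the cyclic AMP response element (TGACGTCA), which were searched on both strands and do not overlap here.
Drd2: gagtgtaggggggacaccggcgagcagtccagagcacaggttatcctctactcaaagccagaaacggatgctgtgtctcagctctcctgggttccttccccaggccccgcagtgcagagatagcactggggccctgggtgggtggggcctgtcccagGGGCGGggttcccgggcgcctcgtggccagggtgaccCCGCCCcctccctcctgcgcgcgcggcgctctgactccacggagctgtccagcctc
Th: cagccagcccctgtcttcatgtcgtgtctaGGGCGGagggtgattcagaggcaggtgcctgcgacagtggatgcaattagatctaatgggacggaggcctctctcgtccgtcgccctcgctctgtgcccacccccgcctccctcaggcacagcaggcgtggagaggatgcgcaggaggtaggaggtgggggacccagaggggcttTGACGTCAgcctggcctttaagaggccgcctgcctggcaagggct
The Drd2 window is chr9:49340153-49340402 on the plus strand, and the Th window is chr7:142899996-142900245 on the minus strand, inside the bounds that GENCODE gives Th (chr7:142892752-142931128) for its longer transcripts. Drd2 had GC boxes that begin 93 and 56 bases before the start, and Th had 1 at 220 bases. Th also had the cyclic AMP response element 45 bases before its start, a match that 1.55% of 32851 promoter windows held, while 32.7% held a GC box. The letters AAAGGTCA, a nerve growth factor IB response element, which 1.34% of windows held, and TATAAA, which 12.4% held, were in neither window. Windows were found for 5 of 5 receptors. These matches are letters in a window and were not set against the expression values.

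Drd2 was the most abundant receptor transcript. The gene (ENSMUSG00000032259.8) lies on GRCm38 chr9:49340627-49408177, plus strand, and has 8 exons in its longest annotated transcript. Its level ran from 1.97 to 328 CPM with a median of 38.5 CPM. Per kilobase of exon, which allows a comparison between genes, the median was 15.1 CPM per kb for Drd2, 1.12 for Drd5, 1.08 for Drd1, 0.174 for Drd3 and 0.0289 for Drd4. Drd2 was above Drd1 in 40 of 40 libraries and above Drd5 in 38 of 40, and the exceptions were C57 female RCF 4 and DBA female control 3, both of high Slc17a7. Drd2 made up a median of 84.3% of the summed level per kb of the 5 receptors, from 34.5% to 99.2%. Drd5 was above Drd1 in 20 of 40 libraries, so the order of the D1-class genes did not hold from one library to the next, while both were above Drd3 in 40 of 40.

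The 11 libraries with the most Drd2 had 112.6 CPM or more, and the others had 80.6 CPM or less. The 11 stood alone in some groups and made up 4 of 5 libraries in C57 female RCF. In C57 males, the controls 1 to 5 had 21.2, 39.3, 147, 37.7 and 18.1 CPM of Drd2, and the RCF libraries 141, 245, 80.6, 32.1 and 27.2 CPM. Control 3 stood alone at the top of the control group, and the RCF range covered most of the control range. In C57 females, the controls had 30.3, 31.8, 190.2, 112.6 and 27.0 CPM, and the RCF libraries 185.5, 147, 154.5, 1.97 and 182 CPM. Here 4 of 5 RCF libraries were high and RCF 4, one of the 4 libraries of high Slc17a7, was the lowest of all 40.

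In DBA males, the Drd2 controls had 28.2, 35.1, 328, 49.8 and 35.7 CPM, and the RCF libraries 33.7, 28.9, 35.4, 37.0 and 34.0 CPM. Control 3 was the highest of all 40 libraries, and the RCF libraries lay within the control range. In DBA females, the controls had 68.7, 40.6, 9.27, 45.8 and 39.2 CPM, and the RCF libraries 38.6, 47.0, 38.3, 38.1 and 180.8 CPM. RCF 5 stood alone there, with the other RCF libraries within the control range. Ordered by median, the groups ran from 31.8 CPM in C57 female controls to 154.5 CPM in C57 female RCF, and each neighbour in that order overlapped the next. Of the 28 pairs of groups, 27 overlapped, and the exception, DBA male RCF (28.9 to 37.0 CPM) below DBA female RCF (38.1 to 180.8 CPM), is a pair that no comparison of the design sets side by side. The share of pairs that overlap over all genes was not computed, for Drd2 or the other receptors.

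**Figure D1:**
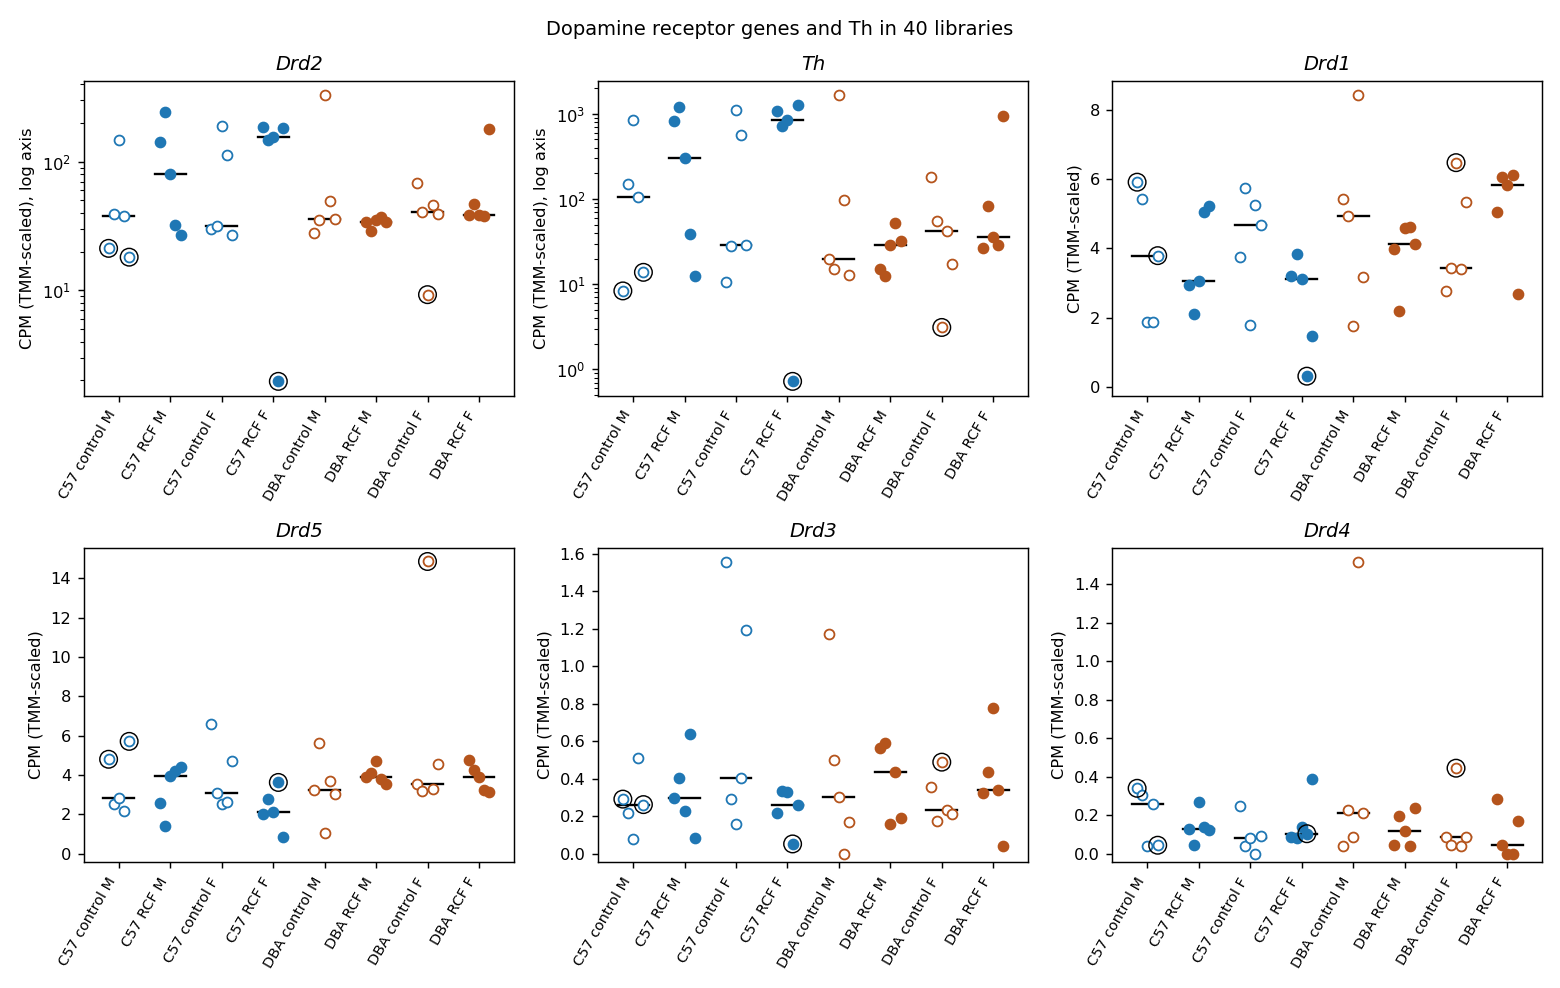
CPM of the 5 receptor genes and Th in each of the 40 libraries (y axis, log scale for Drd2 and Th), by group (x axis). Filled points are RCF, open points control, blue C57, brown DBA, black bars group medians, and black rings the 4 libraries of high Slc17a7. Drd2 runs from 1.97 to 328 CPM and its high points stand where Th is high, while Drd1 and Drd5 mostly lie below 7 CPM.

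RCF did not change Drd2 past the threshold in any strain and sex. By edgeR's quasi-likelihood test, adjusted by Benjamini-Hochberg over 18441 genes with a threshold of 0.05, the log2 difference was 0.995 (SE 0.80, adjusted p = 0.803) in C57 males, where the group means were 105 ± 90.7 (SD, n = 5) CPM in RCF and 52.7 ± 53.7 CPM in controls. It was 0.78 (SE 0.80, adjusted p = 0.716) in C57 females, -1.50 (SE 0.82, adjusted p = 0.761) in DBA males and 0.75 (SE 0.80, adjusted p = 0.733) in DBA females. These values rest on a few libraries. Without control 3, the DBA male value was -0.14, and without RCF 5 the DBA female value was near 0. In C57 males it ran from 0.41 without RCF 2 to 1.85 without control 3, and in C57 females from 0.56 without control 5 to 1.41 without control 3. Without the libraries of high Slc17a7, the value was 0.50 in C57 males and 1.095 in C57 females. Averaged over the 4 conditions the difference was 0.26 (0.066 without DBA female RCF 5 and 0.60 without DBA male control 3). Its 95% interval ran from -0.55 to 1.07, so a mean fall or rise of Drd2 up to those bounds is within the error.

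The Th values of the same libraries followed the same pattern. In C57 males the controls had 8.34, 149, 834, 106.1 and 13.8 CPM of Th, and the RCF libraries 810.4, 1199, 305.5, 38.5 and 12.6 CPM. In C57 females the controls had 10.7, 27.7, 1099, 556 and 29.1 CPM, and the RCF libraries 1068, 725, 840.3, 0.724 and 1258 CPM. The library order within each of these groups was close to that of Drd2. In DBA males the Th controls had 19.6, 15.2, 1643, 97.6 and 12.7 CPM and the RCF libraries 14.9, 12.4, 29.0, 52.2 and 32.3 CPM. In DBA females the controls had 179, 54.9, 3.11, 41.7 and 17.2 CPM, and the RCF libraries 26.3, 82.5, 36.1, 29.1 and 935 CPM. The 11 libraries with Th above 500 CPM were the 11 with the most Drd2.

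Drd2 rose and fell with Th over the libraries. On log2 CPM, with each group's mean taken off, Pearson's r was 0.964 and Spearman's rho 0.958 over 40 libraries (two-sided permutation test within groups, p = 1e-05 for both, the smallest that 100000 permutations can give, adjusted p = 5e-05 for r and 2.5e-05 for rho over the 5 receptors). Without the libraries farthest from the median of Th, C57 female RCF 4 and DBA male control 3, r was 0.949. It was 0.970 within the 20 C57 libraries, 0.951 within the 20 DBA libraries, 0.955 without the 4 libraries of high Slc17a7, and 0.957 to 0.968 with any 1 library left out. Of 18440 other tested genes, Drd2 had the highest r with Th, ahead of Slc6a3 at rank 10, and without the libraries of high Slc17a7 it was at rank 4. The relation of Drd2 to Th was part of the choice of these genes, so the p-value describes a relation already looked for.

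The relation was not proportional. A straight line through the CPM values gave 26.6 CPM of Drd2 (SE 2.65) at a Th of 0 and 15.95 CPM (SE 0.483) for each further 100 CPM of Th, with R2 0.966 and a residual SD of 13.8 CPM. The libraries with the least Th lay below this line. C57 female RCF 4 had 1.97 CPM of Drd2 at 0.724 CPM of Th, and DBA female control 3 had 9.27 CPM at 3.11 CPM. Over all libraries Th spanned a 2270-fold range and Drd2 a 167-fold range. In the 19 libraries with Th below 60 CPM that were not of high Slc17a7, Th spanned 10.7 to 54.9 CPM, a 5.14-fold range, while Drd2 spanned 27.0 to 45.8 CPM, a 1.70-fold range. The ratio of Drd2 to Th in CPM accordingly ran from 0.145 in C57 female RCF 5 to 2.99 in DBA female control 3. Drd2 transcripts were thus measured at 27.0 CPM or more in each of the 36 libraries outside those of high Slc17a7, which had 1.97 to 21.2 CPM. The line gave 29.1 CPM at a Th of 0 without the libraries of high Slc17a7, and 21.9 CPM (SE 4.42) in C57 and 30.1 CPM (SE 1.80) in DBA libraries.

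**Figure D2:**
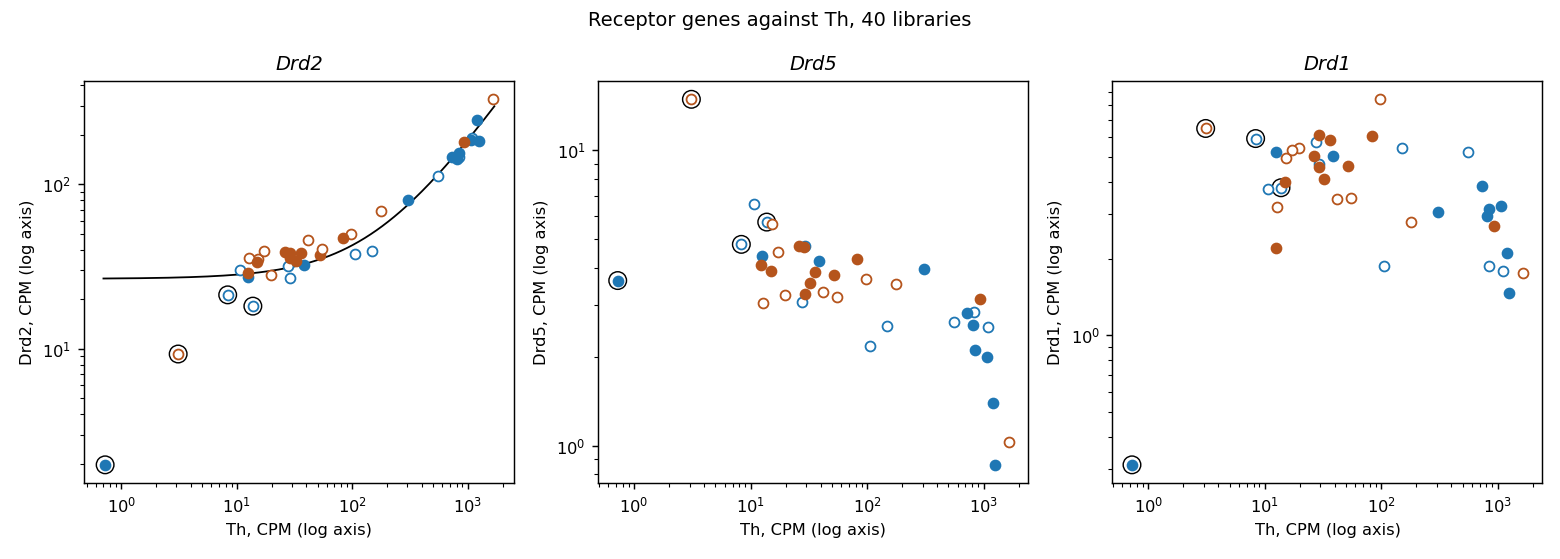
CPM of Drd2, Drd5 and Drd1 (y axes, log scale) against CPM of Th (x axis, log scale) in 40 libraries. Points are coloured and filled as in the plot of levels by group, and the curve is the straight line of Drd2 on Th, which bends on log axes because it meets 26.6 CPM at a Th of 0. Drd2 climbs with Th above about 100 CPM, Drd5 declines, and Drd1 has no single trend because C57 female RCF 4 lies far below the rest at low Th.

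With log2 Th as a covariate in the edgeR fit, Drd2 changed by a slope of 0.48 (SE 0.02) log2 units per log2 unit of Th, or 1.39-fold per doubling of Th (adjusted p = 4.25e-16). This was the gene with the third smallest p among 18441, of which 13.6% had a slope past the threshold. As with the correlation, the relation was part of the choice of these genes, so this p and its rank describe a relation already looked for. Given Th, the standard error of the Drd2 differences fell to 0.23 or 0.24 in the RCF comparisons, and the values moved towards 0. They were 0.33 (95% interval -0.14 to 0.80) in C57 males, -0.25 (-0.73 to 0.23) in C57 females, -0.18 (-0.65 to 0.29) in DBA males and 0.01 (-0.46 to 0.48) in DBA females. The mean over the 4 conditions was -0.02 (-0.26 to 0.21). The sign in C57 females and in the mean thus turned when Th was in the fit, and no value passed the threshold. Th itself is measured in the same punches and differed between the groups' libraries, so a change that RCF made in Th and Drd2 alike would be taken out by this fit.

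Between strains, Drd2 missed the threshold with all libraries and passed it among RCF libraries in some fits. DBA had less Drd2 than C57 in RCF, at 51.2 against 119.7 CPM in mean, a log2 difference of -1.30 (SE 0.57, adjusted p = 0.0960 by edgeR). Without C57 female RCF 4 it was -1.46 (adjusted p = 0.0409), without DBA female RCF 5 it was -1.69 (adjusted p = 0.0329), and without the libraries of high Slc17a7 it was -1.47 (adjusted p = 0.0309). With log2 Th as a covariate the direction turned, to 0.24 (SE 0.18, adjusted p = 0.351). Of the 16 dopamine neuron markers, 15 were lower in DBA in this comparison and 5 of them (Aldh1a1, Chrna6, Ddc, Gucy2c and Slc18a2) passed the threshold, as did 23.8% of all genes in either direction. Their summed level had group medians of 2081 and 5593 CPM in C57 male and female RCF against 423 and 539 CPM in DBA male and female RCF, and their part in the Drd2 difference was not tested beyond the fit with Th. Other markers differed in the same comparison. All 5 oligodendrocyte, all 5 microglia and all 5 endothelial markers were lower in DBA, with 4, 4 and 3 past the threshold. Among controls 5, 4 and 5 of these were lower in DBA, with 0, 1 and 4 past it. In RCF the glycine transporter gene Slc6a5 (-2.54) and the serotonin synthesis gene Tph2 (-3.89) were also lower and past it, while Pmch, a hypothalamic peptide gene, was higher. The astrocyte and striatal lists were mixed there. Of 5 astrocyte markers 3 were lower, 2 of them past the threshold, and 2 were higher. Of 10 striatal markers 5 were lower and 5 higher, and only Ppp1r1b (-0.67) passed it. The serotonin markers summed to 70.6 and 410.7 CPM in C57 female RCF 4 and 5, and to at most 2.02 CPM in the other RCF libraries. The hindbrain markers, which include Slc6a5, summed to 189.8 and 14.8 CPM in C57 female RCF 4 and 5, and to at most 3.175 CPM elsewhere in RCF. The Slc6a5 and Tph2 values thus rest largely on these libraries. The part of all these other markers in the Drd2 difference was not tested. Among controls the Drd2 difference between strains was -0.05 (SE 0.56, adjusted p = 0.970) and, given Th, 0.37 (SE 0.16, adjusted p = 0.126). The difference of the RCF effect between strains was -1.26 (SE 0.80, adjusted p = 0.870), -0.58 without DBA male control 3 and -0.12 with Th in the fit, so the strains were not shown to differ in their response.

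Drd5, the D1-class receptor with the higher affinity for dopamine, went the other way from Th. The gene (ENSMUSG00000039358.3) is a single exon of 3152 nt on chr5:38319367-38322518, plus strand, and 1531 nt of it lie under the antisense gene Gm26560. The kit keeps strand but the strand setting of the counting is not given in the sources used here, so reads of both genes may be mixed. Gm26560 itself had 0 to 19 counts per library with a median of 3.50, against 20 to 335 counts of Drd5. Its level ran from 0.861 to 14.9 CPM with a median of 3.54 CPM.

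In C57 males, Drd5 was at 4.80, 2.55, 2.82, 2.17 and 5.71 CPM in controls 1 to 5 and at 2.57, 1.39, 3.96, 4.23 and 4.39 CPM in RCF. In C57 females it was at 6.59, 3.06, 2.51, 2.63 and 4.73 CPM in controls and at 2.00, 2.80, 2.10, 3.62 and 0.861 CPM in RCF. The RCF libraries of females reached lower than their controls, with overlap between 2.51 and 3.62 CPM. In DBA males it was at 3.24, 5.63, 1.03, 3.67 and 3.05 CPM in controls and at 3.89, 4.08, 4.70, 3.78 and 3.54 CPM in RCF. In DBA females it was at 3.53, 3.18, 14.9, 3.30 and 4.54 CPM in controls and at 4.74, 4.28, 3.88, 3.25 and 3.15 CPM in RCF. The 14.9 CPM of DBA female control 3, a library of high Slc17a7 and the highest of the thalamus marker sums (993 CPM), stood far above all others. All 28 pairs of groups overlapped.

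The RCF log2 differences of Drd5 were -0.12 (SE 0.40, adjusted p = 0.959) in C57 males, -0.78 (SE 0.41, adjusted p = 0.434) in C57 females, 0.27 (SE 0.40, adjusted p = 0.914) in DBA males and -0.61 (SE 0.40, adjusted p = 0.538) in DBA females by edgeR. The C57 female value was -0.51 without control 1 and -1.004 without the libraries of high Slc17a7. The DBA male value ran from 0.036 without control 3 to 0.54 without control 2, and the DBA female value became 0.088 without control 3. The difference of the RCF effect between sexes was 0.77 (SE 0.40, adjusted p = 0.603), and 0.41 without DBA female control 3. With Th, r was -0.725 and rho -0.773 over 40 libraries (permutation p = 2e-05 and 1e-05, adjusted p = 5e-05 and 2.5e-05). It was -0.681 without the libraries farthest from the median of Th, -0.731 within C57 and -0.758 within DBA libraries, and -0.751 to -0.682 with any 1 library left out. Without the libraries of high Slc17a7, r was -0.683 and rho -0.592. The edgeR slope was -0.17 (SE 0.03) log2 units per log2 unit of Th, or 0.886-fold per doubling (adjusted p = 4.79e-05), and 7.9% of all genes had a negative slope past the threshold. Of 18440 genes, Th was the 43rd from the bottom in likeness to Drd5, and at rank 18312 of 18440 without the libraries of high Slc17a7. In DBA against C57 RCF libraries Drd5 was at 0.52 (SE 0.29, adjusted p = 0.193), and at 0.63 (adjusted p = 0.0429) without the libraries of high Slc17a7.

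Drd1, the other D1-class gene, did not differ between groups past the threshold, and its relation to Th depended on 1 library. It lies on chr13:54051183-54055705, minus strand (ENSMUSG00000021478.6), and ran from 0.310 to 8.43 CPM with a median of 3.92 CPM. In C57 males it was at 5.91, 5.44, 1.87, 1.87 and 3.79 CPM in controls and 2.95, 2.11, 3.06, 5.05 and 5.22 CPM in RCF. In C57 females it was at 3.76, 5.75, 1.79, 5.26 and 4.68 CPM in controls and 3.22, 3.85, 3.13, 0.310 and 1.46 CPM in RCF. The lowest value of all 40 was again C57 female RCF 4, with 6 counts. In DBA males it was at 5.43, 4.95, 1.76, 8.43 and 3.18 CPM in controls and 3.99, 2.196, 4.59, 4.61 and 4.12 CPM in RCF. In DBA females it was at 2.78, 3.45, 6.48, 3.42 and 5.35 CPM in controls and 5.06, 6.07, 5.85, 6.12 and 2.69 CPM in RCF. All pairs of groups overlapped.

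By edgeR, the RCF log2 difference of Drd1 was -0.04 (SE 0.42, adjusted p = 0.988) in C57 males, -0.82 (SE 0.43, adjusted p = 0.432; -0.54 without RCF 4) in C57 females, -0.28 (SE 0.42, adjusted p = 0.915) in DBA males and 0.27 (SE 0.42, adjusted p = 0.835) in DBA females. With Th its r was -0.0716 and rho -0.288 (permutation p = 0.753 and 0.115, adjusted p = 0.753 and 0.191). Without C57 female RCF 4 it was -0.620 (adjusted p = 8e-04), without the libraries farthest from the median of Th -0.547 (adjusted p = 0.0042), and without those of high Slc17a7 -0.558 (adjusted p = 0.0059). It was 0.150 within C57 and -0.596 within DBA libraries. The edgeR slope of Drd1 on log2 Th likewise went from -0.07 (SE 0.05, adjusted p = 0.423) to -0.16 (adjusted p = 0.00545) without that library and to -0.15 (adjusted p = 0.0283) without those of high Slc17a7. In that library the hindbrain markers, at 189.8 CPM in sum against a median of 1.105 CPM, were the highest of all 40.

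Drd3 and Drd4, the other D2-class genes, were near the limit of detection. Drd3 (ENSMUSG00000022705.5, chr16:43754026-43822932, plus strand) had 0 to 38 counts with a median of 7, and 14 of 40 libraries had 10 counts or more. Its 2 highest libraries were C57 female controls 1 and 5, at 1.55 and 1.19 CPM, followed by DBA male control 1 at 1.17 CPM, against a median of 0.298 CPM. Drd3 was lower in C57 female RCF than in controls, at 0.238 ± 0.115 (SD, n = 5) against 0.720 ± 0.616 CPM, a log2 difference of -1.56 (SE 0.68). This failed the adjustment (adjusted p = 0.342 by edgeR), the groups overlapped between 0.160 and 0.334 CPM, and the difference was -1.06 without control 1. The other RCF differences of Drd3 were 0.27 (SE 0.70) in C57 males, -0.17 (SE 0.67) in DBA males and 0.39 (SE 0.68) in DBA females.

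Drd4 (ENSMUSG00000025496.5, chr7:141292006-141296464, plus strand), known from retina and prefrontal cortex, had a median of 2 counts. It was at 0 in 3 libraries and reached 10 counts in 2 libraries, so it did not pass the filter on low counts and was not tested. Where it was at 0, the 3 counts taken as the limit of detection correspond to 0.107 to 0.126 CPM, which covers counting error only. DBA male control 4 stood apart with 28 counts of Drd4, or 1.51 CPM (95% Poisson interval 18.6 to 40.5 counts), against 10 counts in the next library. The same library had 0 counts of Drd3, the highest Drd1 of all (8.43 CPM), the highest summed hypothalamus markers (1205 CPM against a median of 116 CPM) and the lowest oligodendrocyte markers (3116 CPM). With Th, r was -0.173 for Drd3 (adjusted p = 0.564) and -0.126 for Drd4 (adjusted p = 0.589), neither past the threshold. The Drd3 value was -0.441 (adjusted p = 0.0169) without the libraries farthest from the median of Th and 0.00233 within C57 libraries.

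Over the 10 comparisons, edgeR called 0 receptor genes in 40 tests of the 4 receptors that passed the filter, and 2 tests had an unadjusted p under 0.05, Drd3 in C57 females and Drd2 between strains in RCF. DESeq2 also called 0. Few genes of any kind were called for RCF. The share of all 18441 genes called was 0.0108% in C57 males, 0.00542% in C57 females, 0.0163% in DBA males, 0.0163% in DBA females and 0.0217% for the mean of the 4. It was 0.0108% for the difference of the RCF effect between strains, 0.00542% for that between sexes, and 0.0922% for males against females in controls. The strain comparisons called 16% in controls and 23.8% in RCF, which is the background against which 0 of 4 receptors is read there. With log2 Th as a covariate the shares for the strain comparisons were 16.1% and 21.2%, those of the other comparisons were unchanged, and 0 receptors were called. Males and females among controls did not differ past the threshold either, with log2 differences of 0.33 (SE 0.56) for Drd2, -0.47 (SE 0.28, and -0.12 without DBA female control 3) for Drd5, -0.02 (SE 0.30) for Drd1 and -0.41 (SE 0.48) for Drd3.

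**Figure D3:**
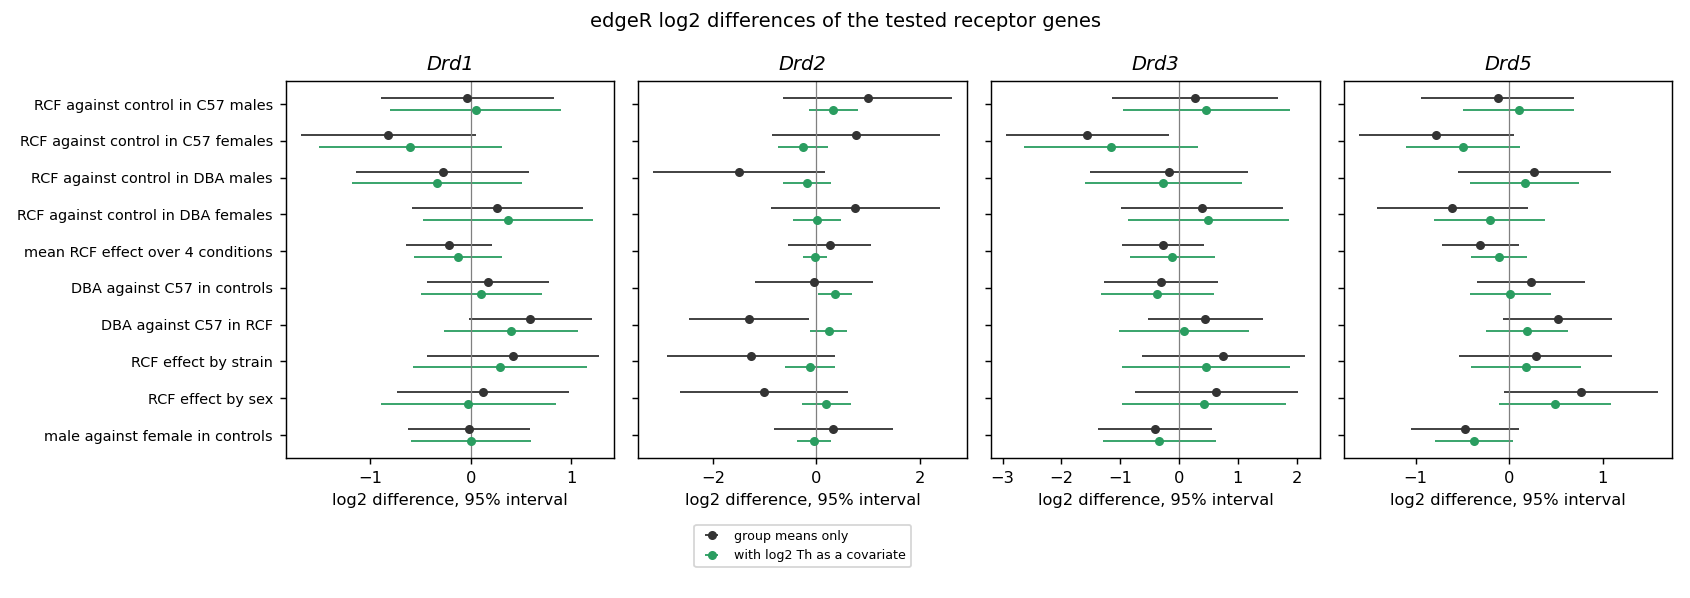
Log2 differences of the 4 tested receptor genes (x axes) with 95% intervals in the 10 comparisons (rows), from the fit of group means (dark) and with log2 Th as a covariate (green). For Drd2 the intervals shrink with Th in the fit, from a standard error of 0.80 to 0.23 in C57 males, while those of Drd1 and Drd3 hardly change.

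The receptors were also compared with one another. Drd2 and Drd5 went opposite ways, with r -0.701 and rho -0.749 over 40 libraries (permutation p = 2e-05 for both, adjusted p = 2e-04 for r over 10 pairs), and r was -0.687 without the libraries of high Slc17a7. None of the other 9 pairs passed the threshold. Drd1 with Drd2 had r -0.00670 over all libraries and -0.666 without those of high Slc17a7, and Drd1 with Drd5 had 0.354 and 0.601, so these values depend on the 4 libraries.

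The genes whose values followed each receptor most closely over the 40 libraries are given as a description, by Pearson's r of log2 CPM with group means taken off. For Drd2 they were Grip2 at 0.987, Th at 0.964, Tacr3, the neurokinin 3 receptor gene, at 0.963, Oprk1, the kappa opioid receptor gene, at 0.953, and Dlk1 at 0.947. Without the libraries of high Slc17a7, Grip2 was at rank 4, Th at rank 10, Tacr3 at rank 36, Oprk1 at rank 42 and Dlk1 at rank 76. For Drd5 they were Kcnj3 at 0.837, Baiap2 at 0.824, Kcnj9 at 0.820, Nab2 at 0.819 and Bhlhe40 at 0.816. Without the libraries of high Slc17a7 these were at ranks 43, 9, 19, 27 and 72. Kcnj3 and Kcnj9 encode subunits of the inward rectifier potassium channels that Gi-coupled receptors open. For Drd1 the closest were Fam84a at 0.866, Nell1 at 0.851, Dlk2 at 0.845, Sidt1 at 0.844 and Sh2d5 at 0.841, and without those libraries they were at ranks 19, 25, 13, 4 and 37. For Drd3, with few counts, Tmem108 led at 0.712, and Rsph14 at 0.664, Gm28221 at 0.663 and Zfp526 at 0.661 were among the closest, at ranks 1, 15, 6 and 9 without those libraries.

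Genes that act behind the receptors were taken as lists of 18 transducers (G protein subunits and adenylyl cyclases), 14 regulators (RGS proteins, receptor kinases, arrestins and others) and 13 effectors (potassium channels, kinase and phosphatase subunits, phosphodiesterases). All 45 were tested. In the 4 RCF comparisons and their mean, edgeR called 0 of 45, with 2, 8, 1 and 9 at an unadjusted p under 0.05 in C57 males, C57 females, DBA males and DBA females, and 4 in the mean. The share of all genes at that p was 7.07%, 12.5%, 6.72%, 12.3% and 6.95%. Between strains in controls Rgs8 (0.25), Ncs1 (0.23) and Prkaca (0.16) were higher in DBA on the log2 scale, 3 of 45 where 16% of all genes were called. Between strains in RCF, 7 were higher in DBA, namely Kcnj9 (0.56), Adcy8 (0.34), Adcy3 (0.28), Arrb2 (0.27), Ncs1 (0.26), Gnas (0.20) and Akt1 (0.14). Ppp1r1b, which encodes the phosphatase inhibitor DARPP-32 that acts below the D1 receptor, was lower (-0.67, SE 0.15, adjusted p = 0.000997). These are 8 of 45 where 23.8% of all genes were called, so in neither strain comparison was the share called above that of all genes. In this comparison the median log2 difference was 0.05, 0.09 and 0.09 for the 3 lists against -0.01 over all genes.

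On Th, 15 of the 45 had an edgeR slope past the threshold, 7 positive and 8 negative, beside 5.7% and 7.9% of all genes. Among the effectors, Kcnj6, the potassium channel subunit gene known from dopamine neurons, rose with Th (slope 0.13, SE 0.03, adjusted p = 0.00637), as did Prkar2b (0.05). Kcnj3 (-0.15, SE 0.02, adjusted p = 2.56e-05), Kcnj9 (-0.11) and Pde1b (-0.04) fell. Among the regulators, Grk3 (0.06), Rgs2 (0.04), Grk6 (0.03) and Rgs8 (0.03) rose, and Rgs4 (-0.22, SE 0.03, adjusted p = 2.32e-07) and Grk2 (-0.02) fell. Among the transducers, Adcy5 (0.03) rose and Adcy9 (-0.08), Adcy8 (-0.06) and Gng7 (-0.05) fell. The Drd2 slope of 0.48 was above the highest of these, and that of Drd5 (-0.17) lay between Rgs4 and Kcnj3.

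Lists of markers of 13 cell types or regions show what moved with each receptor over the libraries. Their part in the receptor values was not tested beyond these relations. Each list was summed in CPM and set against each receptor on the log2 scale with group means taken off, 65 relations in all, of which 9 passed an adjusted permutation p of 0.05 by r and 9 by rho, 8 of them by both. The dopamine neuron list, which holds Th and ran from 229 to 11120 CPM in sum, had r 0.893 and rho 0.923 with Drd2, and r -0.719 and rho -0.759 with Drd5 (adjusted p = 0.000325 for all). Because the list holds Th, its relation to Drd2 is not separate from the one that was part of the choice of these genes. The forebrain glutamate list (13.1 to 1830 CPM) had r -0.704 and rho -0.682 with Drd2 (adjusted p = 0.00065 and 0.00347). With Drd5 it had r 0.649 and rho 0.628 (adjusted p = 0.00336 and 0.00672), and without the libraries of high Slc17a7 r was -0.493 for Drd2 and 0.336 for Drd5. The striatal projection neuron list (206 to 815 CPM) had r -0.779 and rho -0.643 with Drd2 (adjusted p = 0.0039 and 0.00672), and r 0.527 and rho 0.489 with Drd5 (adjusted p = 0.0352 and 0.0317). For this list, r without the libraries of high Slc17a7 was -0.521 for Drd2 and 0.475 for Drd5. Its highest sum, 815 CPM, was in C57 female RCF 4, one of those libraries. Thus libraries with more Drd2 had less of both lists, and libraries with more Drd5 had more of them.

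Drd1 went with the hypothalamus and mammillary body list (4.91 to 1205 CPM in sum), at r 0.678 and rho 0.586 (adjusted p = 0.00104 and 0.00984), and against the oligodendrocyte list (3116 to 24250 CPM), at r -0.495 and rho -0.467 (adjusted p = 0.0352 and 0.0617, the second not past the threshold). With the serotonin neuron list it had r -0.534 and rho -0.537 (adjusted p = 0.125 and 0.0317), past the threshold by rho alone. Without the libraries of high Slc17a7 the hypothalamus list had r 0.691 with Drd1, -0.758 with Drd2 (-0.195 over all libraries) and 0.588 with Drd5 (0.296 over all). In the same setting Drd1 had r -0.410 with the oligodendrocyte list and -0.372 with the serotonin neuron list. Drd3 went against the hindbrain list, at r -0.539 and rho -0.560 (adjusted p = 0.00065 and 0.00672), but both are low, with a median of 7 counts for Drd3 and 1.105 CPM for the list's sum. Drd4 was related to none of the lists past the threshold. Anterior pituitary markers, of a tissue rich in Drd2, were at a median of 0.0871 CPM in sum and at most 15.4 CPM, and 0 of 5 passed the filter on low counts. No list had a member at 0 in all libraries. With the libraries farthest from each list's median left out, r of the 9 relations past the threshold by r kept its sign, and it was 0.875 for Drd2 with the dopamine neuron list and 0.571 for Drd1 with the hypothalamus list.

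**Figure D4:**
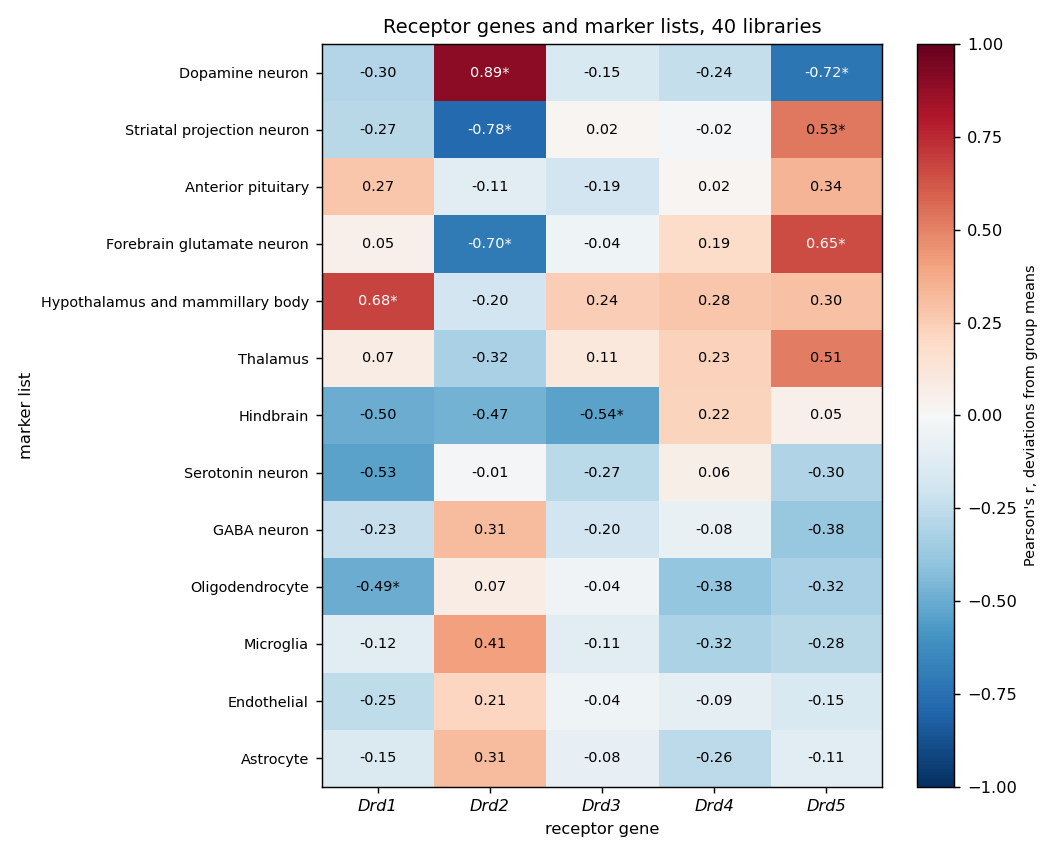
Pearson's r over 40 libraries between log2 CPM of each receptor gene (columns) and the log2 summed CPM of each marker list (rows), with group means taken off (colour scale from -1 to 1). Stars mark the 9 relations of 65 with an adjusted permutation p of r under 0.05. The strongest is Drd2 with the dopamine neuron list, at 0.89, a list that holds Th, whose relation to Drd2 was part of the choice of genes.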

How the data were processed

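The 40 libraries of VTA punches were sequenced as single reads of 75 nt from a stranded Tecan mRNA kit, per the labels' protocols. The submitters' processing notes name FastQC, cutadapt 1.11, bcl2fastq 2.20 and the build GRCm38. Neither the aligner nor the counter, its strand setting or its annotation is named in the sources used here. The authors deposited raw whole-number counts of reads for each gene. Symbols and coordinates came from GENCODE for GRCm38 (54487 of 55471 identifiers matched with their version, 657 without), and promoter windows from RefSeq.

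All 40 libraries entered one edgeR 4.0.16 fit (R 4.3.3) with a mean per group, TMM factors of 0.905 to 1.09, robust quasi-likelihood F tests and 32 residual degrees of freedom. The filterByExpr filter left 18441 genes, among them 4 receptors, and the fit was checked on simulated data. P-values were adjusted by Benjamini-Hochberg, threshold 0.05. Correlations used log2 CPM with a prior count of 2, and summed lists had 0.1 CPM added. Alternatives were DESeq2 1.42.0, other size factors, no filter, the compared groups only, a replicate block, Th as a covariate and libraries left out. The 4 libraries of high Slc17a7 are those over 10 times the median.

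Named genes are the receptors and Th, the 5 genes most like each tested receptor, and the pathway members past the threshold; 1 gene that this rule names is not reported here. The members, lists and rules were chosen with earlier results of these data known. No library repeated another of its group, since in each of 80 pairs the chi-square of the counts was at least 5.51 per degree of freedom.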

Additional observations from a re-analysis of the deposited data

Results flagged for a closer look

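Of 48 groups of 5 libraries checked (5 receptors and Th in 8 groups), 12 had a library whose gap to the nearest other, over the whole range, exceeded Dixon's 95% critical value of 0.71. Chance flags about 1 in 20 groups where values are normally distributed. The check was made on CPM, for which that was not tested, so the rate by chance may be higher. The genes share libraries, so the flags are not independent.

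For Drd2, the high libraries were C57 male control 3 at 147 CPM against 18.1 to 39.3 CPM in the other controls, DBA male control 3 at 328 CPM against 28.2 to 49.8 CPM, and DBA female RCF 5 at 180.8 CPM against 38.1 to 47.0 CPM. The same libraries stood apart for Th, at 834, 1643 and 935 CPM. The low one was C57 female RCF 4, with 1.97 CPM of Drd2 against 147 to 185.5 CPM.

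For Drd5, DBA female control 3 had 14.9 CPM against 3.18 to 4.54 CPM. For Drd1, DBA male RCF 2 had 2.196 CPM against 3.99 to 4.61 CPM.

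For Drd4, DBA male control 4 had 1.51 CPM against at most 0.227 CPM, DBA female control 3 had 0.444 CPM against at most 0.0883 CPM, and C57 female RCF 5 had 0.388 CPM against at most 0.140 CPM. The latter 2 values rest on 10 and 9 counts.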

How the results depend on the processing

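Settings other than leaving out 1 library gave 265 log2 differences of the receptors, of which 250 kept their direction and 15 turned, all between values that did not pass the threshold. Depth limits Drd3 and Drd4 most, with medians of 7 and 2 counts. With log2 Th in the fit, Drd1 turned to 0.048 for RCF in C57 males, -0.026 for the RCF effect by sex and 0.0018 between sexes in controls. Drd5 turned to 0.099 for RCF in C57 males. Drd2 turned to -0.25 for RCF in C57 females, -0.024 for the mean RCF effect, 0.37 and 0.24 for DBA against C57 in controls and RCF, 0.19 for the RCF effect by sex and -0.048 between sexes in controls. Without the libraries of high Slc17a7, RCF differences turned to 0.27 for Drd1 and 0.40 for Drd5 in C57 males and to 0.092 for Drd5 in DBA females, and 2 receptors were called for DBA against C57 in RCF (Drd2 and Drd5).

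The replicate number as a replicate block gave Drd2 differences of 0.045 between strains and -0.023 between sexes in controls, both turned, and changed no call. Libraries of the same number were in mean hardly more alike than others, and pairing of single libraries was not tested. Over 140 pairs of libraries of the same number, deviations correlated at 0.0032 in mean, against -0.000445 over 560 other pairs. Of the 140 pairs, 26 were over 0.1, and 11 of 40 libraries correlated best with their own number.

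The relation of Drd1 to Th was -0.547 without the libraries farthest from the median of Th, -0.558 without those of high Slc17a7, -0.596 within DBA and 0.150 within C57 libraries, and its slope was -0.15 without those of high Slc17a7. Drd3 with Th was -0.441 without the farthest libraries and 0.0023 within C57. No gap in Th split the libraries (largest 0.865 log2 units against a limit of 1.5), so no values within clusters were computed. The cause of these changes was not tested.

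Leaving out 1 library gave 880 log2 differences, of which 845 kept their direction and 35 turned. For RCF in C57 males the ranges were -0.21 to 0.17 for Drd1, -0.11 to 0.63 for Drd3 and -0.26 to 0.10 for Drd5. In DBA males they were -0.50 to 0.020 for Drd1 and -0.47 to 0.64 for Drd3. In DBA females they were -0.0046 to 1.03 for Drd2, -0.030 to 0.67 for Drd3 and -0.76 to 0.088 for Drd5. Between strains in controls they were -0.73 to 0.38 for Drd2 and -0.11 to 0.37 for Drd5. The RCF effect by sex of Drd1 ran from -0.019 to 0.27. Between sexes in controls Drd1 ran from -0.17 to 0.090 and Drd2 from -0.35 to 0.65. For DBA against C57 in RCF, 0 to 1 receptors were called. The correlation of Drd1 with Th ran from -0.620 to 0.0398 and its slope from -0.16 to -0.042. The Drd2 line ran from 15.1 CPM per 100 CPM of Th without DBA male control 3 to 16.6 without C57 female RCF 5.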
